A study of Gallus gallus with 4 samples.

Results

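The genes described here are the nuclear-encoded genes of the mitochondrial respiratory chain and ATP synthase in the chick area vasculosa. They were chosen by name: every row of the deposited table whose name begins with NDUF, UQCR or ATP5, is one of SDHA to SDHD, or is COX followed by a number, and whose locus is not on the mitochondrial genome. ATP5 names ending in W or Z were left out, which removed 1 row, ATP5A1W. This gave 68 genes of 17108 rows. Of these, 53 encode structural subunits of complexes I to V and 15 encode assembly or accessory factors that carry the same kind of name. The area vasculosa is the ring of extraembryonic yolk sac around the early chick embryo where blood islands and the first vessels form. Tissue was dissected at HH10, HH11, HH12 and HH13 (the Hamburger-Hamilton staging of the chick), and its total RNA was sequenced as 1 library per stage. The labels give no strain, genotype or treatment, and the sources used here do not say how many embryos went into a library. With 1 library per stage no difference below has a replicate check, none carries an error or a p-value from a test run here, and stage cannot be told apart from any other difference between the libraries.

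Complex I takes electrons from NADH and passes them to quinone, and complex II does the same from succinate, an intermediate of the citric acid cycle. Complex III, the cytochrome bc1 complex, hands the electrons to cytochrome c, and complex IV, cytochrome c oxidase, gives them to oxygen. Complexes I, III and IV move protons across the inner membrane, and complex V, the ATP synthase, uses the proton gradient to make ATP. Parts of the catalytic core of complexes III and IV and much of the proton-pumping arm of complex I are built with proteins made from mitochondrial DNA, so each of these complexes needs transcripts from both genomes. Complex V does too, through the mitochondrial genes MT-ATP6 and MT-ATP8. Complex II is built from nuclear genes alone.

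Expression was given as FPKM, fragments scaled to transcript length and library size, a scale on which levels of different genes can be set side by side. The number of reads behind a value is unknown, since FPKM keeps no read count. Total FPKM lay between 762831 in HH11 and 952203 in HH10. Differences are in log2(FPKM + 1), which understates those of low genes, over the 11773 genes that reached 1 FPKM in some library, and all 68 genes passed that filter. The label of the tissue was checked with marker genes. The summed FPKM of the 6 erythroid markers of 8 listed that reached 1 FPKM was 1311, 257, 13120 and 29383 in HH10, HH11, HH12 and HH13. For 7 such yolk sac endoderm markers of 8 it was 13071, 5439, 17071 and 48931. For 5 endothelial markers of 6 it was 62.3, 29.8, 55.1 and 154. These 3 sums were lowest in HH11 and highest in HH13, and their part in the results below was not tested. HBE1, a globin, stayed under 1 FPKM and was at 0 in HH10 and HH11. Markers of other tissues were not absent. The 7 cardiac markers summed to 157, 89.1, 68.5 and 74.2 FPKM, above the endothelial sum in HH10, HH11 and HH12. For 3 neural markers of 6 the sum was 44.9, 28.5, 29.6 and 73.8 FPKM. NKX2-5 and SOX2 were at 1.79 and 4.16 FPKM in HH10 and at 0 in HH12. In 3 smooth muscle markers of 5 the sum was 87.2, 40.1, 131 and 472 FPKM. In bulk tissue, fewer cells of a type and less RNA per cell cannot be told apart.

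The structural subunits were abundant transcripts at every stage. Their median was 183, 172, 195 and 196 FPKM in HH10, HH11, HH12 and HH13, against medians of 11.9, 12.2, 11.9 and 12.4 FPKM for all genes. By mean over the 4 libraries, 44 of 53 lay in the top 10% of all genes. Together they summed to 13760, 12707, 14938 and 15437 FPKM, or 1.45%, 1.67%, 1.79% and 1.74% of the total. With globin, ribosomal RNA, mitochondrial rows and the unnamed row ENSGALG00000026592 left out of the total, these shares were 2.30%, 2.05%, 2.25% and 2.35%. The lowest share was then in HH11 and not in HH10. Complex V took the largest share among the complexes, with 0.49%, 0.54%, 0.54% and 0.52% of total FPKM. Complex I had 29 genes and a nearly equal share in the later libraries, 0.40%, 0.49%, 0.53% and 0.51%. Complex III took 0.26%, 0.29%, 0.34% and 0.33%, and complex IV 0.24%, 0.28%, 0.31% and 0.32%. Complex II, with 3 genes, took 0.06% to 0.07%. The shares cover only subunits that have a row under these names, and SDHB of complex II had none. The 15 assembly and accessory factors were much lower, with medians of 20.1, 19.4, 21.7 and 19.3 FPKM, and 1 of them, COX17, lay in the top 10%.

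**Figure D1:**
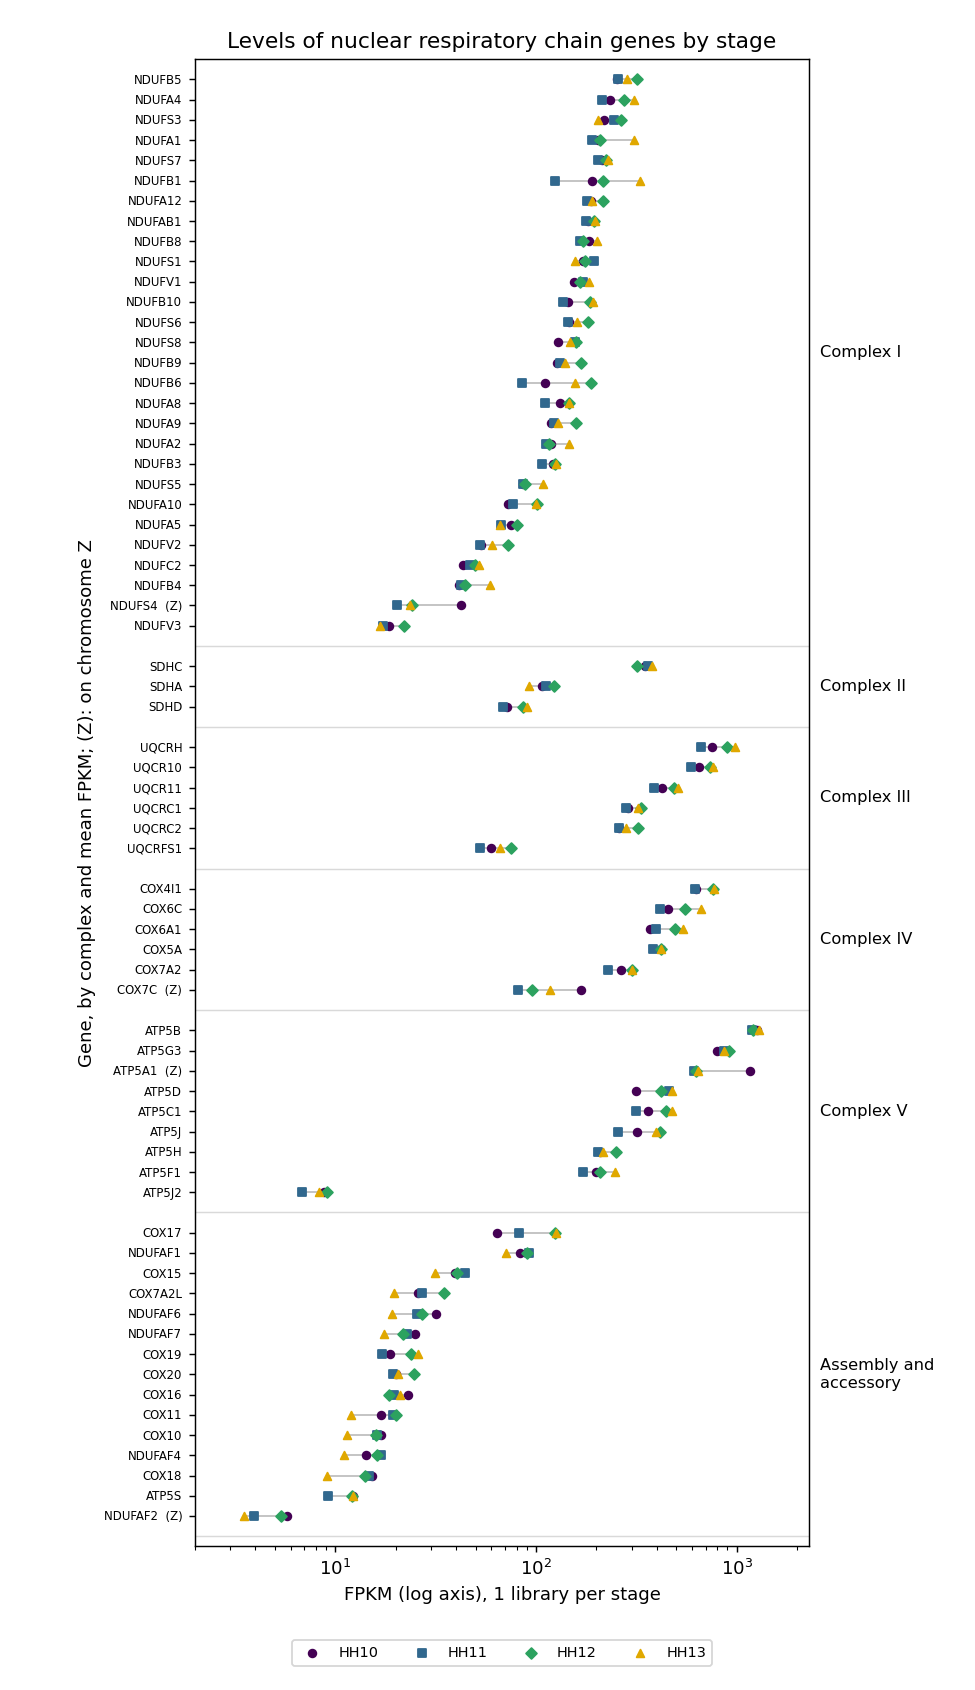
FPKM of 67 of the 68 genes (log axis) at HH10, HH11, HH12 and HH13, 1 symbol per library, by complex and mean level; genes on chromosome Z carry a (Z). Most structural subunits lie above 50 FPKM with 4 closely spaced symbols, the 3 Z-linked subunits have HH10 far to the right of the other stages, and the assembly and accessory factors lie lower, often with HH13 leftmost.

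Levels within a complex were far from equal. ATP5B, the catalytic beta subunit of ATP synthase, was the most abundant of the 68, with 1261, 1192, 1211 and 1291 FPKM in HH10, HH11, HH12 and HH13. The least abundant structural row was that of ATP5J2, the membrane subunit f of the same enzyme, with 8.76, 6.86, 9.11 and 8.26 FPKM. The highest mean in complex V was therefore 150 times the lowest, a figure that rests on the ATP5J2 row. The next lowest mean in complex V was 207 FPKM, for ATP5F1, against 1239 FPKM for ATP5B. The ATP5J2 row lies on chromosome 18 at 9275790 to 9281520 of build galGal4 and shares its locus with another row, and it is the 1 row of those that could be compared whose chromosome name differs from that of its symbol in RefSeq, so its low value is uncertain. In complex I the highest mean was 14.9 times the lowest, and in complex III 13.0 times.

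Over the 4 stages the structural subunits differed by small amounts, mostly in the same direction. As deposited, most were highest in HH12 or HH13: the highest of the 4 values was in HH10 for 3 genes, in HH11 for 1, in HH12 for 21 and in HH13 for 28. Among all genes the same shares were 18.4%, 28.4%, 19.5% and 33.6%. With libraries set to the same total without globin, ribosomal RNA and mitochondrial rows and the unnamed row ENSGALG00000026592, the counts were 11, 4, 15 and 23. With every library set to the same total FPKM they were 3, 9, 30 and 11, so most subunits were then highest in HH12. Of all 11773 genes, the highest value was then in HH10, HH11, HH12 and HH13 for 889, 5574, 1951 and 3359. HH11 held the lowest value of 35 of 53 structural subunits (66.0%), against 26.3% of all genes and 23.0% of the 2025 genes with a mean of at least 50 FPKM. This depends on the scaling: with every library set to the same total FPKM, HH11 was lowest for 4 subunits and HH10 for 43. The highest value of any gene was 126367 FPKM in HH10, against 22109, 24252 and 28448 FPKM in HH11, HH12 and HH13. A value of that size weighs on the total of HH10, and its part in the change was not tested. Of all 11773 genes, HH11 was then lowest for 15.4% and HH10 for 4237 genes. Under the remaining scalings HH11 was lowest for 32 and 37 subunits (60.4% and 69.8%), against 24.4% and 27.6% of all genes. The median difference between the highest and the lowest stage was 0.38 in log2, or 1.30-fold, against 0.62 for all genes and 0.52 for genes with a mean of at least 50 FPKM.

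For HH13 against HH10 the median log2 difference of the structural subunits was 0.17 and 44 of 53 were above 0. The medians were 0.00 for all genes and -0.10 for genes with a mean of at least 50 FPKM, of which 41.3% were above 0. Few subunits differed much. At least 1.5-fold higher in HH13 were 2 of 53, NDUFB1 and ATP5D, where 19% of all genes passed the same fold. At least 1.5-fold lower were 2, ATP5A1 and NDUFS4, both on chromosome Z, where 11.5% of all genes passed. No structural subunit was 2-fold higher or 2-fold lower, against 9.39% and 4.06% of all genes. The counts of subunits thus do not exceed those shares, and the pattern lies in the small differences of one sign.

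The steps between adjacent stages were unequal. For HH11 against HH10 the median was -0.07, with 16 of 53 above 0, and none was 1.5-fold higher (all genes 6.74%) while 4 were 1.5-fold lower (all genes 11.4%). That median turns to 0.25 if every library is set to the same total FPKM, a scaling that moves the median of all genes to 0.30, so relative to all genes it stayed below 0. For HH12 against HH11 the median was 0.27 with 49 of 53 above 0, against 0.00 for all genes. NDUFB6, NDUFB1 and ATP5J were at least 1.5-fold higher in that step (all genes 9.91%) and none was lower (all genes 6.9%). For HH13 against HH12 the median was 0.01 with 30 of 53 above 0, against -0.003 for all genes. Genes with a mean of at least 50 FPKM had a median of -0.21 in that step. Only NDUFB1 was 1.5-fold higher there (all genes 17.7%) and none was lower (all genes 9.28%). Setting every library to the same total FPKM gave this step a median of -0.08 with 16 of 53 above 0. The median of all genes was then -0.08 too.

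The size of the HH13 against HH10 difference depends on how the libraries are scaled. Setting the libraries to the same total without globin, ribosomal RNA and mitochondrial rows and that unnamed row gave a median of 0.036 with 33 of 53 above 0, and moved the median of all genes to -0.12. Relative to the median of all genes, the structural subunits were higher by 0.17 as deposited and by 0.16, 0.19 and 0.17 under the 3 other scalings. The HH12 against HH11 median relative to all genes was 0.27 as deposited and between 0.25 and 0.27 under those scalings.

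**Figure D2:**
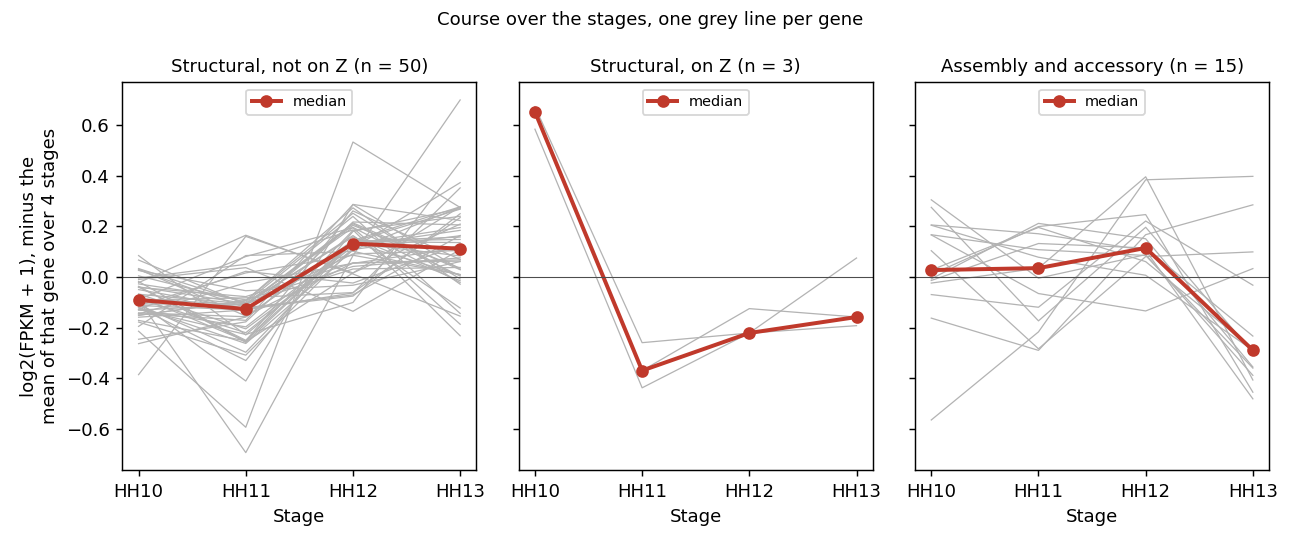
Course of each gene over HH10 to HH13 as log2(FPKM + 1) minus the mean of that gene over the 4 stages, with 1 grey line per gene and the median in red. The median of the 50 structural subunits that are not on chromosome Z is lower in HH10 and HH11 than in HH12 and HH13, the 3 on Z are highest in HH10, and most of the 15 assembly and accessory factors are lowest in HH13.

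In complex I, 24 of 29 genes were higher in HH13 than in HH10, with a median difference of 0.17. The 2 arms of the complex differed in how evenly this held. The membrane arm pumps protons, and its 13 measured genes, all accessory subunits, had a median of 0.33 and were all above 0. Their summed level was 1710, 1562, 2007 and 2201 FPKM in HH10, HH11, HH12 and HH13. The matrix arm carries the flavin and iron-sulphur clusters that pass electrons to quinone, and its 13 genes had a median of 0.10 with 8 above 0. Their sum was 1610, 1646, 1797 and 1681 FPKM. The last step differed too: for HH13 against HH12 the median was 0.06 in the membrane arm and -0.17 in the matrix arm. With the scaling that leaves out globin, ribosomal RNA and mitochondrial rows, the HH13 against HH10 medians were 0.19 for the membrane arm, with 12 of 13 above 0, and -0.03 for the matrix arm. The sorting of genes into arms was made after values had been seen, and the difference between the arms was not tested.

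NDUFB1, a small accessory subunit of the membrane arm on chromosome 5 at 43845120 to 43847133, had the largest difference upward in complex I. It had 190, 125, 215 and 330 FPKM in HH10, HH11, HH12 and HH13, lowest in HH11 and highest in HH13, and its HH13 against HH10 difference was 0.79. NDUFA1, another membrane arm subunit, had 204, 191, 208 and 307 FPKM and a difference of 0.58, just under 1.5-fold. Both had their highest value in HH13, well above the other libraries. NDUFB6, of the same arm, lies on chromosome 14 at 13393595 to 13395738 and had 111, 85.3, 187 and 156 FPKM. Its HH12 against HH11 difference of 1.12 was the only one above 2-fold upward in any adjacent step among the structural subunits. NDUFB4, with 41.3, 42.1, 44.2 and 59.2 FPKM, also had its highest value in HH13. NDUFB5, the most abundant complex I gene by mean, had 253, 257, 319 and 284 FPKM and was highest in HH12. The other 8 membrane arm genes, NDUFA8, NDUFA10, NDUFS5, NDUFB3, NDUFB8, NDUFB9, NDUFB10 and NDUFC2, had means between 47.9 and 180 FPKM and HH13 against HH10 differences between 0.04 and 0.45.

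In the matrix arm, NDUFV1, the flavoprotein that takes electrons from NADH, had 154, 171, 166 and 184 FPKM in HH10, HH11, HH12 and HH13. NDUFS1, the largest iron-sulphur subunit, had 171, 195, 175 and 156 FPKM, and it was the 1 structural subunit with its highest value in HH11. NDUFB1 was 1.11 times NDUFS1 in HH10, 0.641 times in HH11, 1.23 times in HH12 and 2.11 times in HH13, so the order of these subunits of opposite arms was not the same in every library. NDUFS3, a core subunit near the quinone site, had 219, 246, 266 and 204 FPKM and was lowest in HH13. NDUFS7, which holds the last iron-sulphur cluster before quinone, stayed between 204 and 229 FPKM. NDUFV3, an accessory subunit of the NADH-oxidising end, was the lowest complex I gene by mean, with 18.6, 17.2, 22.1 and 16.7 FPKM. NDUFS4, whose loss in mammals destabilises the complex, had the largest difference downward and is described with the Z-linked genes. Of the other matrix arm genes, NDUFA2, NDUFA5, NDUFA12, NDUFS6, NDUFS8 and NDUFV2 had means between 59.6 and 194 FPKM and HH13 against HH10 differences from -0.19 in NDUFA5 to 0.30 in NDUFA2. NDUFA9, at the junction of the arms, and NDUFAB1, the mitochondrial acyl carrier protein found in both, differed by 0.12 and 0.10. NDUFA4, counted here by its name although the protein is now placed in complex IV, had 235, 212, 274 and 309 FPKM.

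Complex II had 3 measured genes, and they did not move together. SDHA, the flavoprotein that oxidises succinate, lies on chromosome 2 at 85681939 to 85697842 and had 108, 112, 123 and 91.8 FPKM in HH10, HH11, HH12 and HH13. SDHC, a membrane anchor subunit on an unplaced scaffold, had 349, 361, 320 and 379 FPKM. SDHD, the other membrane anchor, had 72.0, 68.6, 86.4 and 90.4 FPKM. HH13 was thus the lowest library for SDHA and the highest for both anchors, and SDHC stood at 4.13 times SDHA in HH13 against 3.24 times in HH10. The differences for HH13 against HH10 were -0.23, 0.12 and 0.32 in the order SDHA, SDHC, SDHD. Their median turns to -0.02 with the scaling that leaves out globin, ribosomal RNA and mitochondrial rows.

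In complex III all 6 genes were higher in HH13 than in HH10, by 0.11 to 0.38, and all 6 were higher in HH12 than in HH11, by 0.26 to 0.51. All 6 were also lower in HH11 than in HH10 as deposited, by less than 0.20, and this turns round if every library is set to the same total. With the scaling that leaves out globin, ribosomal RNA and mitochondrial rows, 5 of 6 were above 0 for HH13 against HH10. UQCRH, the hinge protein that helps cytochrome c dock, on chromosome 8 at 20498970 to 20500444, was the most abundant, with 754, 662, 896 and 980 FPKM. The small subunits UQCR10, with 650, 590, 734 and 762 FPKM, and UQCR11, with 423, 386, 489 and 510 FPKM, had the same order of stages as UQCRH. The core proteins UQCRC1, with 288, 280, 336 and 324 FPKM, and UQCRC2, with 259, 259, 323 and 280 FPKM, were instead highest in HH12. UQCRFS1, the Rieske iron-sulphur protein, had by far the lowest level, 59.5, 52.6, 75.5 and 66.0 FPKM, so that UQCRH was between 11.9 and 14.8 times as high in each library.

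In complex IV, 5 of the 6 measured nuclear subunits were higher in HH13 than in HH10 and the exception was the Z-linked COX7C. COX4I1, the regulatory subunit that binds early in assembly, on chromosome 11 at 17077534 to 17081626, was the most abundant, with 628, 621, 764 and 773 FPKM in HH10, HH11, HH12 and HH13. COX6C had 453, 414, 555 and 664 FPKM and the largest difference upward, 0.55. COX6A1, the form found outside heart and skeletal muscle in mammals, was close behind at 0.54, with 370, 398, 491 and 539 FPKM. Both had higher values in HH12 and HH13 than in HH10 and HH11. COX7A2, likewise the general form in mammals, had 264, 228, 300 and 301 FPKM. COX5A was the flattest of the 6 and stayed between 382 and 422 FPKM, with a HH13 against HH10 difference of 0.00. Under the scaling without globin, ribosomal RNA and mitochondrial rows the median of the 6 was 0.11, against 0.24 as deposited.

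In complex V, 7 of 9 genes were higher in HH13 than in HH10, with a median difference of 0.12 that turns to -0.01 with the scaling that leaves out globin, ribosomal RNA and mitochondrial rows. Values in the catalytic head were uneven. As deposited, ATP5B, given above, stayed within 1.08-fold over the 4 libraries, the narrowest range of all 53. That ranking is not given here under other scalings. ATP5C1, the gamma subunit that turns inside the head, had 363, 314, 447 and 476 FPKM in HH10, HH11, HH12 and HH13. ATP5D, the delta subunit of the same rotor, lies on an unplaced scaffold and had 316, 462, 418 and 478 FPKM. ATP5D was lowest in HH10, unlike most of the others, and its HH13 against HH10 difference of 0.59 was the largest upward in the complex. ATP5G3, which encodes the subunit c of the membrane ring, had 794, 868, 911 and 865 FPKM. Among the genes of the stalk that holds the head in place, ATP5J had 318, 256, 416 and 398 FPKM, ATP5F1 had 200, 172, 207 and 249 FPKM, and ATP5H had 210, 204, 252 and 216 FPKM. As deposited, all 3 stalk genes were lowest in HH11, as was ATP5J2.

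**Figure D3:**
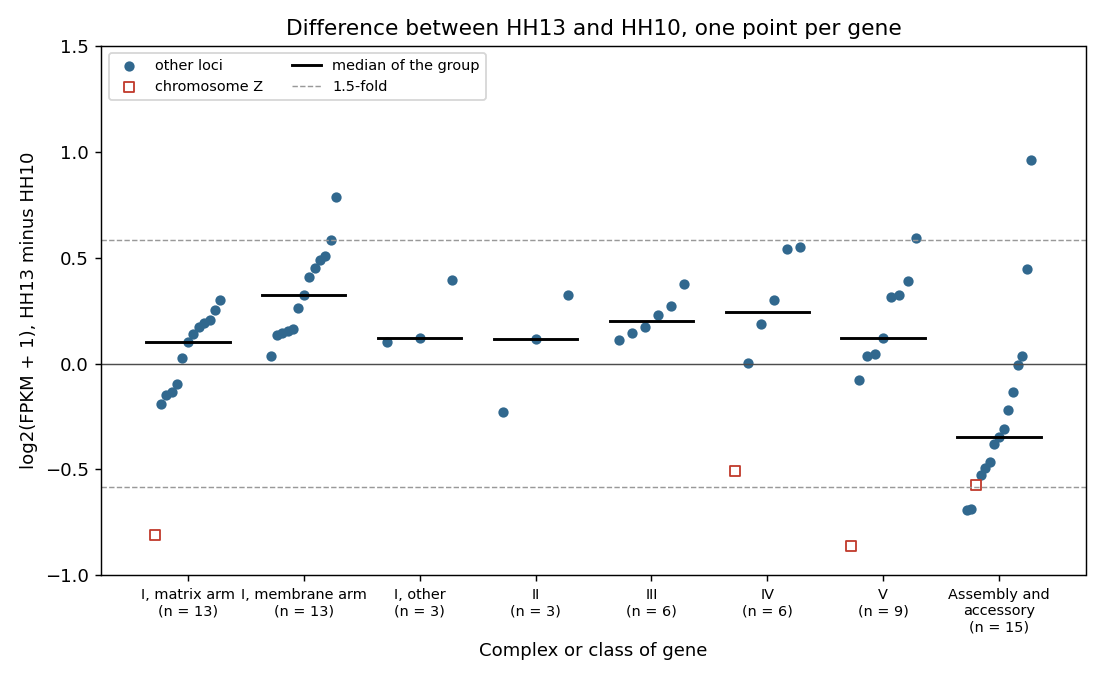
Difference in log2(FPKM + 1), HH13 minus HH10, with 1 point per gene, by complex or class; black bars are medians, open red squares are genes on chromosome Z, and dashed lines mark 1.5-fold. All 13 membrane arm genes of complex I and all 6 genes of complex III lie above 0, the 3 Z-linked structural subunits lie lowest in their groups, and 12 of the 15 assembly and accessory factors lie below 0.

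The 3 structural subunits on chromosome Z had a course unlike the other 50. ATP5A1, the alpha subunit of ATP synthase on Z at 2151456 to 2159196, had 1169, 613, 629 and 642 FPKM in HH10, HH11, HH12 and HH13. COX7C, a small subunit of complex IV on Z at 61059202 to 61062815, had 167, 81.7, 95.1 and 117 FPKM. NDUFS4, on Z at 15962742 to 16010010, had 42.1, 20.2, 24.1 and 23.6 FPKM. In each of them HH10 was the highest library by far, and as deposited no other structural subunit had its highest value in HH10. With the scaling that leaves out globin, ribosomal RNA and mitochondrial rows, 8 of the other 50 did too. Their HH11 against HH10 differences were -0.93, -1.02 and -1.02 in the order ATP5A1, COX7C, NDUFS4, and stayed below 0 under each scaling. The 4th gene on Z, the assembly factor NDUFAF2, had 5.73, 3.93, 5.37 and 3.52 FPKM. Over the 537 genes on Z the HH11 against HH10 median was -0.51, and for HH13 against HH10 it was -0.47.

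ATP5A1 has a copy whose name marks it as W-linked, ATP5A1W, and its row lies on an unplaced scaffold. In birds females carry a Z and a W chromosome and males a pair of Z chromosomes. ATP5A1W had 0.654, 213, 237 and 264 FPKM in HH10, HH11, HH12 and HH13, and made up 0.0559%, 25.8%, 27.3% and 29.1% of both copies together. The sum of both copies was 1170, 826, 866 and 906 FPKM, so it too was highest in HH10. ATP5A1 alone was 0.927 times ATP5B, its partner in the head of the enzyme, in HH10 and 0.514, 0.520 and 0.497 times in HH11, HH12 and HH13. The sources used here do not say how reads that match both copies were divided. Stage and the sex chromosome make-up of the HH10 library cannot be told apart in these genes. Without the Z-linked genes, the median of the 50 others was 0.18 for HH13 against HH10 with 44 above 0, and -0.06 for HH11 against HH10.

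**Figure D4:**
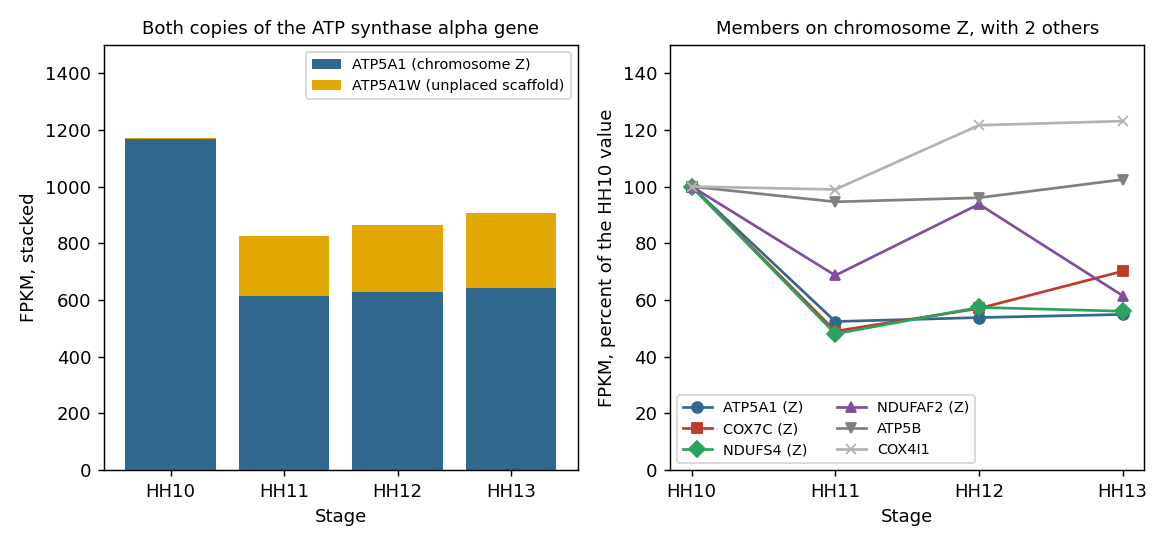
Left, FPKM of ATP5A1 and ATP5A1W stacked at each stage; right, FPKM of the 4 Z-linked genes as percent of the HH10 value, with ATP5B and COX4I1 from other chromosomes in grey. The W copy is visible from HH11 onward and not in HH10, and the Z-linked genes lie below their HH10 level at every later stage while COX4I1 ends above it.

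Most of the 15 assembly and accessory factors chosen by name went the other way from the structural subunits. Their median difference for HH13 against HH10 was -0.35, with 3 of 15 above 0, and for HH13 against HH12 it was -0.35 with 4 above 0. HH13 was the lowest library for 10 of 15 (66.7%), against 34.8% of all genes and 50.5% of genes with a mean of at least 50 FPKM. HH10 was the highest for 7 (46.7%), against 18.4% of all genes. Both counts are as deposited and are not given here under other scalings. Setting every library to the same total FPKM multiplies HH10 by 0.903 and HH11 by 1.13, so the highest stage can change. Relative to all genes the HH13 against HH10 median lay between -0.35 and -0.34 under every scaling tried. For HH13 against HH10, 1 of 15 was at least 1.5-fold higher (all genes 19%) and 2 were at least 1.5-fold lower (all genes 11.5%), so the counts past that fold are no result about these factors. The summed level of the 15 was 412 FPKM in both HH10 and HH13, of which COX17 alone made up 64.1 and 126 FPKM. The sum of the other factors was thus lower in HH13. In assembly factors with other names, 13 measured of 33 listed, the HH13 against HH10 median was 0.16 as deposited with 8 above 0. The direction was thus not shared by all measured assembly factors. The direction of the median was not tested against other gene groups.

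All 5 complex I assembly factors were lowest in HH13, as were 34.8% of all genes. NDUFAF1, the most abundant of them, had 82.9, 91.8, 90.7 and 71.0 FPKM in HH10, HH11, HH12 and HH13. NDUFAF6 had 31.8, 25.4, 27.2 and 19.3 FPKM and a HH13 against HH10 difference of -0.69. NDUFAF4, with 14.3, 16.8, 16.1 and 11.03 FPKM, and NDUFAF7, with 25.1, 22.9, 21.7 and 17.5 FPKM, had smaller differences of -0.35 and -0.49. Among the factors for complex IV, COX10 and COX15 make the haem A of the enzyme and COX11 delivers copper to it. COX10 had 16.9, 16.2, 15.9 and 11.4 FPKM, COX15 had 39.4, 44.4, 40.3 and 31.5 FPKM, and COX11 had 16.8, 19.4, 20.0 and 11.9 FPKM, each lowest in HH13. COX18, which inserts a mitochondrially made subunit into the membrane, had 15.2, 14.8, 14.1 and 9.06 FPKM. COX7A2L, a factor of supercomplexes, had 25.9, 27.0, 35.0 and 19.6 FPKM, and its HH13 against HH12 difference of -0.80 was the largest downward in that step among the 68 genes.

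Of the 3 factors above 0 for HH13 against HH10, the one with the largest difference was COX17. This copper chaperone of the intermembrane space, on chromosome 1 at 79591467 to 79593419, had 64.1, 81.9, 125 and 126 FPKM in HH10, HH11, HH12 and HH13. Its HH13 against HH10 difference of 0.96 was the largest upward of all 68 genes, and it was higher in both HH12 and HH13 than in both earlier libraries. COX19, a related intermembrane space protein, had 18.7, 17.1, 23.8 and 25.9 FPKM and was likewise highest in HH13. COX20 had 20.1, 19.4, 24.8 and 20.7 FPKM, COX16 had 23.1, 19.6, 18.6 and 21.0 FPKM, and ATP5S, the coupling factor B, had 12.3, 9.16, 12.1 and 12.2 FPKM, with HH13 against HH10 differences between -0.13 and 0.04. In the 13 measured of 33 listed assembly factors with other names, the HH13 against HH10 median was 0.16 with 8 above 0. Their HH12 against HH11 median was 0.25 with all 13 above 0. Their HH13 against HH12 median was -0.14 with 4 above 0. They included ACAD9, a complex I assembly factor with 170, 175, 224 and 251 FPKM, FOXRED1, another, at 1.00, and HIGD1A, a factor linked to complexes III and IV, at -0.81. As deposited, the medians of the 2 groups of factors for HH13 against HH10 thus had opposite signs, a difference that was not tested. The scaling that leaves out globin, ribosomal RNA and mitochondrial rows multiplies HH10 by 1.06 and HH13 by 0.966, so it lowers both medians. The median of 0.16 under it is not given here.

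Structural subunits and assembly factors also differ in the length of their loci. Structural genes were compact: they had a median locus of 3682 bases, against 12970 bases for assembly and accessory factors. All genes were put into 4 bins of equal size by locus length. Among genes with a locus of their own in the shortest bin, at most 5683 bases, 33 of 35 structural subunits were above 0 for HH13 against HH10, with a median of 0.23, and 3 of 5 assembly and accessory factors, with a median of 0.04. Among those with longer loci of their own, 9 of 13 structural subunits were above 0, with a median of 0.12, and 0 of 5 assembly and accessory factors, with a median of -0.49. The other 5 of each class share a locus with another row, so their locus length is not that of the gene. Over all genes the medians by bin, from the shortest loci, were 0.02, -0.02, -0.02 and 0.01. Within genes with a mean of at least 50 FPKM they were -0.03, -0.12, -0.13 and -0.15. The part of locus length in the difference between the classes was not tested, and the bins were set after values had been seen.

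In the authors' deposited table of pairwise tests between stages, 0 of 68 genes had a q-value under 0.05 in any of 6 pairs, against 264 of 17108 rows (1.54%) with at least 1 such pair. The smallest p-value of a member in the authors' deposited table was 0.0312, for COX7C between HH10 and HH11, with a q-value of 0.676. In the authors' deposited table NDUFB6 had a p-value of 0.0375 between HH11 and HH12 and NDUFS4 one of 0.0417 between HH10 and HH11. No stage was replicated behind those p-values.

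Other mitochondrial genes did not all follow the structural subunits. The 12 named protein-coding rows of the mitochondrial genome summed to 116634, 96327, 100539 and 122698 FPKM in HH10, HH11, HH12 and HH13. The sum of the nuclear structural subunits was 11.8%, 13.2%, 14.9% and 12.6% of that. No row was named MT-CO2, so the mitochondrial sum is incomplete. MT-ATP6, MT-ATP8 and MT-CO3 share a locus, as do MT-ND4 and MT-ND4L. For HH13 against HH12 all 12 mitochondrial rows were above 0, with a median of 0.32, in the step where the nuclear subunits had a median of 0.01. Mitochondrial ribosomal proteins, 59 genes, had a median of 0.20 with 51 above 0 for HH12 against HH11, but a median of -0.34 for HH13 against HH12 and -0.12 for HH13 against HH10. Of 21 measured genes of the citric acid cycle and pyruvate entry, 7 were above 0 for HH13 against HH10, with a median of -0.13. MDH2, malate dehydrogenase, was the most abundant of them with 283, 306, 376 and 313 FPKM, PDK4, a kinase that inhibits pyruvate dehydrogenase, had the largest difference upward at 0.63 from levels of 0.412, 0.135, 0.896 and 1.18 FPKM, and IDH3A, a subunit of isocitrate dehydrogenase, the largest downward at -0.55. Of 15 genes for electron carriers and other routes of electron entry, 7 were above 0, with a median of -0.04. COQ9, needed to make quinone, was the most abundant with 64.5, 66.5, 83.2 and 69.4 FPKM. ETFA, which brings in electrons from fatty acid oxidation, was highest in HH13 with a HH13 against HH10 difference of 0.73, and GPD2, which does so from glycerol phosphate, was lowest there at -0.84. For HH12 against HH11 the structural subunits had a median of 0.27 as deposited. In that step 14 of 21 citric acid cycle and pyruvate entry genes were above 0, with a median of 0.11. Of the 15 electron carrier and entry genes 10 were above 0, also with a median of 0.11. None of these differences between gene groups was tested.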

How the data were processed

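RNA sequencing of the area vasculosa gave 1 library at each of 4 stages, so there were no replicates and no test between stages was run here. Genome build galGal4 and the tools TopHat2 2.0.8, Cufflinks and Cuffdiff are named in the submitters' processing notes; the sources used here do not give the other versions, the annotation release or the library scaling. The authors' deposited table holds FPKM per gene and library, and the authors' p-value and q-value for each of 6 pairs of stages, per the file headers. Depth is unknown, so no counting interval was given. Starts are printed 1 higher than deposited.

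Rows of 1 symbol were summed (17019 genes), those that never reached 1 FPKM were dropped (leaving 11773), and the deposited FPKM values were compared as log2(FPKM + 1), with 1.5-fold and 2-fold as sizes to count. Python 3.11.15, pandas 2.3.3, numpy 2.4.6 and matplotlib 3.10.9 were used. The fold script read back known differences that had been written into the deposited values, which checks its arithmetic only. RefSeq names matched 67 of 68 genes, and its coordinates were not used. Members, gene lists and alternatives were chosen with earlier results of these data known; the split into classes and arms, the locus length bins and the sets without chromosome Z were set after values were seen. Named genes were, per complex, the highest and lowest by mean and the largest differences up and down for HH13 against HH10, all genes past 1.5-fold there or 2-fold in an adjacent step, named pairs of related genes, all measured complex II genes, and the highest and the extremes of each other list. Other members were named with values known. Results were recomputed with a pseudocount of 0.1 or 5, without a filter or with one at 5 FPKM, under 3 further scalings, with only the highest row of each symbol, with all 68 genes together, and without chromosome Z. Promoter sequences were not used here, and individual values of 1 member and of 1 gene from another list are not reported.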

Additional observations from a re-analysis of the deposited data

How the results depend on the processing

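Of 90 recomputed values, 81 stayed close to the reported value (within 0.1 in log2 for a median, within 1.5 times for a count) and 9 moved. The 0.1 is wider than the smaller medians, so a change of sign could pass as close. The HH13 against HH12 median counted as close although it went from 0.01 to -0.08 with every library set to the same total FPKM. With every library set to the same total FPKM, 9 structural subunits (7 higher, 2 lower) were at least 1.5-fold apart for HH13 against HH10 in place of 4 (all genes 21.4% higher, 8.87% lower), and 0 for HH13 against HH12 in place of 1 (15.5%, 12.6%); the HH11 against HH10 median changed sign to 0.25 and the HH12 against HH11 median 0.14, with medians of all genes at 0.30 and -0.11. With globin, ribosomal RNA and mitochondrial rows and the row ENSGALG00000026592 left out of the total, the HH13 against HH10 median became 0.036, and the highest stage was HH10, HH11, HH12 and HH13 for 11, 4, 15 and 23 subunits. The same counts with every library set to the same total FPKM, 3, 9, 30 and 11, were not among the 90 values. With assembly and accessory factors included, 7 of 68 genes (3 higher, 4 lower) were 1.5-fold apart for HH13 against HH10, where all genes had 19% and 11.5%, and 4 (1 higher, 3 lower) for HH13 against HH12, where all genes had 17.7% and 9.28%. Without the subunits on chromosome Z, an alternative added after the data were seen, the counts of 50 were 2, both higher, for HH13 against HH10 (all genes 19%) and 1, lower, for HH11 against HH10 (all genes 11.4%). The cause of these moves was not tested beyond the scaling factors and gene sets themselves. Pseudocounts moved no result. The filters and the choice of row could not change a value of these genes. Each has 1 row and reached 5 FPKM in some library. Their recomputed values are among the 81 that stayed close, but they are no check. No paired analysis was possible because each stage has 1 library, and the planned comparison of promoter motifs was not run because no promoter sequences were used here. Unknown depth and the lack of replicates limit every difference, most of all those of low genes such as ATP5J2 and NDUFAF2.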

Other observations

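Carriers and pores that serve the respiratory chain, regulators of mitochondrial biogenesis, antioxidant enzymes and glycolysis were measured in the same libraries. Of 9 genes for import and carriers that reached 1 FPKM, 3 were above 0 for HH13 against HH10 and the median was -0.16. SLC25A3, the phosphate carrier that feeds ATP synthase, was the most abundant, with 835, 869, 1018 and 855 FPKM in HH10, HH11, HH12 and HH13. VDAC1, an outer membrane pore, had 18.7, 27.8, 38.0 and 39.0 FPKM and the largest difference upward, 1.02. SLC25A4, an ADP/ATP carrier, had 154, 194, 185 and 110 FPKM and the largest downward, -0.48. Of 16 regulators of biogenesis and factors that maintain mitochondrial DNA, 4 were above 0, with a median of -0.37. TFAM, which packages mitochondrial DNA, was the most abundant with 102, 106, 123 and 74.6 FPKM. PPRC1, a coactivator of the PGC-1 family, had the largest difference downward, -1.03, with 28.6, 34.2, 19.4 and 13.5 FPKM, and the transcription factor YY1 the largest upward, 0.41.

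Of 5 mitochondrial antioxidant genes 4 were above 0, with a median of 0.30. SOD2, the manganese superoxide dismutase, was the most abundant with 142, 153, 189 and 174 FPKM. PRDX3, a mitochondrial peroxiredoxin, had 98.1, 87.8, 145 and 147 FPKM and a difference of 0.58, and NNT, which makes NADPH at the inner membrane and was the 1 gene of the list below 0, had 74.7, 51.0, 48.4 and 45.2 FPKM. Of 16 glycolytic genes, 7 were above 0, with a median of -0.17. GAPDH was the most abundant with 3271, 3507, 3925 and 4419 FPKM. PGK1, phosphoglycerate kinase, had the largest difference downward, -1.07. For HH12 against HH11, as deposited, 8 of 9 import and carrier genes (median 0.19) and 4 of 5 antioxidant genes (median 0.30) were above 0. In the same step 4 of 16 biogenesis genes (median -0.15) and 4 of 16 glycolytic genes (median -0.15) were above 0.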
